A study of Homo sapiens with 18 samples.

Results

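TFPI2, NNMT, EFEMP1, TNFRSF11B and FLG are 5 of the 62703 genes listed in the deposited tables, and they were chosen by their measured levels, which were higher in MDA-MB-231 cells treated with GSK126 than in DMSO-treated cells. The values that chose them are the expected counts and TPM of the GSK126 and DMSO libraries. Those values are therefore given here as a description with no test. Tests are given in the knockdown libraries, which the rule of choice did not use. Earlier results of these data were nevertheless known when the genes, and the gene lists used below, were chosen. MDA-MB-231 is a human triple-negative breast cancer cell line, and all cells were grown in DMEM with serum. Polyadenylated RNA was sequenced from 5 groups of 2 libraries each. For the knockdowns, cells were exposed for 24 h to lentivirus carrying a control shRNA, an shRNA against EZH2 (shEZH2) or an shRNA against E2F1 (shE2F1), and were then selected for 72 h in puromycin at 2 μg/ml. For the drug arm, cells that received no lentivirus or puromycin were kept for 72 h in DMSO or in 1 μM GSK126. Each target was lowered with 1 hairpin, and the 2 libraries of a group are not stated to come from separate cultures, so p-values measure only the spread between these libraries, which may be technical.

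EZH2 is the enzyme within Polycomb repressive complex 2 that methylates histone H3 at genes that are kept silent, and GSK126 is a small molecule that competes with the methyl donor at the EZH2 active site. An shRNA lowers the EZH2 transcript itself, whereas the inhibitor leaves the protein in place. E2F1 is a transcription factor best known for driving genes of DNA replication and the cell cycle. The 5 genes have unrelated products. TFPI2 encodes a secreted Kunitz-type inhibitor of serine proteases in the extracellular matrix, NNMT the enzyme that methylates nicotinamide, EFEMP1 the matrix glycoprotein fibulin-3, TNFRSF11B osteoprotegerin, the soluble decoy receptor for RANK ligand and TRAIL, and FLG filaggrin, a structural protein of cornified skin.

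The 5 genes are protein coding and lie on different chromosomes of GRCh38. In GENCODE, TFPI2 (ENSG00000105825) spans chr7:93885396-93890753 on the minus strand, NNMT (ENSG00000166741) chr11:114257787-114313536 on the plus strand and EFEMP1 (ENSG00000115380) chr2:55865967-55924139 on the minus strand. FLG (ENSG00000143631) spans chr1:152302165-152325239, also on the minus strand. The RefSeq promoter table (GRCh38.p14) held an entry for 2 of the 5, TFPI2 and FLG. The 250 bases before the start of each are shown for that reason, with CpG dinucleotides in capitals. The 2 sequences differ in CpG content, and any link of CpG content to the changes of these genes was not tested. The TFPI2 sequence is chr7:93890754-93891003 and the FLG sequence is chr1:152325240-152325489, each read 5′ to 3′ on the minus strand.
TFPI2: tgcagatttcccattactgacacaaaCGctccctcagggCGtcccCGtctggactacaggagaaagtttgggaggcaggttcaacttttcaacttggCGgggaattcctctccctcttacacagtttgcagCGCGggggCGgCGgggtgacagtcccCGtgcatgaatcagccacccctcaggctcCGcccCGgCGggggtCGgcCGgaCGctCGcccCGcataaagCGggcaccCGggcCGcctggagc
FLG: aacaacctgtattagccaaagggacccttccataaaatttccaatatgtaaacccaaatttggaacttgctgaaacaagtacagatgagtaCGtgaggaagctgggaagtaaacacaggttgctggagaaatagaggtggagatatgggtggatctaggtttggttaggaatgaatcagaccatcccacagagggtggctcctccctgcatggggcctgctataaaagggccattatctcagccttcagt
The TFPI2 sequence held 20 CpG and was 64.4% G or C, whereas the FLG sequence held 1 CpG and was 45.6% G or C. The median over the 35116 promoters of the table was 11 CpG in the same 250 bases. More CpG were found in 30.2% of promoters than in that of TFPI2, and fewer in 6.06% than in that of FLG. The letters TATAAA, searched on both strands, occurred upstream of FLG and not of TFPI2, and in 10.7% of all promoters. The E2F letters TTTCCCGC, TTTCGCGC, TTTGCCGC and TTTGGCGC, searched on both strands, were in neither window and in 2.79% of all promoters.

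The libraries held between 13198932 and 20055550 expected counts. The hairpins lowered their targets: on the log2 scale EZH2 fell by 1.79 with shEZH2 (adjusted p = 2.4e-06, edgeR's quasi-likelihood test) and E2F1 fell by 2.54 in shE2F1 (adjusted p = 1.52e-05). E2F1 also fell by 1.59 in shEZH2 (adjusted p = 0.000172 in the same edgeR test), so shEZH2 cells had less of both transcripts. EZH2 had a change of -0.37 in shE2F1 (adjusted p = 0.0227, edgeR), not called. EZH2 RNA had a mean of 138 CPM in GSK126 and 125 CPM in DMSO. Of the line's markers, VIM lay between 1185 and 2860 TPM, PGR was at 0 in every library and ESR1 reached at most 0.17 TPM. ERBB2, also listed as low in the line, was detected in every library, with a median of 31.4 TPM and a maximum of 35.6 TPM. CDH1, on the same list, had a median of 0.71 TPM and was above ESR1 in every library. The 5 markers that are high in the line summed to between 4004 and 4027 TPM in shEZH2 and to between 5571 and 6030 TPM elsewhere, and the part of this in the shEZH2 results was not tested. The shEZH2 changes correlated with GC content over 15366 genes (Pearson r = -0.24), and the shE2F1 changes with r = -0.02.

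GSK126 was the condition that chose the genes, and the spread among them was wide. Levels are given as TMM-scaled CPM (reads scaled to a common total, with library sizes scaled by the trimmed mean of M values over all 10 libraries). TNFRSF11B read 7.57 and 5.43 CPM in DMSO against 22.9 and 16.6 CPM in GSK126, a log2 change of 1.59. FLG read 23.3 and 14.3 CPM in DMSO against 54.6 and 40.0 CPM in GSK126, a log2 change of 1.32. Both GSK126 libraries lay above both DMSO libraries for each of these genes, although the 2 DMSO libraries of FLG were far apart. Taken by replicate number, the log2 ratios of GSK126 to DMSO were 1.59 and 1.61 for TNFRSF11B and 1.23 and 1.48 for FLG. NNMT read 9.68 and 10.7 CPM in DMSO against 25.7 and 21.5 CPM in GSK126 (log2 change 1.21). TFPI2 read 14.1 and 15.3 CPM in DMSO against 34.2 and 29.7 CPM in GSK126 (log2 change 1.12). EFEMP1, the most abundant of the 5, read 160 and 150.3 CPM in DMSO against 306 and 275 CPM in GSK126 (log2 change 0.90). The DMSO and GSK126 libraries did not overlap for any of the 5, which the choice by these same libraries favours, so it is not a result. How many of all genes tested were likewise apart was not counted. The EFEMP1 difference was 1.87-fold, below the 2-fold used for calls.

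A gene was called where it changed by over 2-fold with an adjusted p under 0.01. By that rule 0 of 14632 genes (0.0%) were called between GSK126 and DMSO. In the same edgeR fit 577 genes had an unadjusted p under 0.05, a share of the genes tested below the 0.05 expected if none differed. The count of 0 depended on the fit: DESeq2 called 11 genes, edgeR with the replicate number as a block 68, the same with a GC and length correction 77, and edgeR without 1 of the 4 libraries between 37 and 43. No call on the 5 genes is taken from these fits, since the same libraries chose them. Nor were the 5 the largest differences by fold. They ranked 41st (TNFRSF11B), 75th (FLG), 105th (NNMT), 135th (TFPI2) and 237th (EFEMP1) of 14632 genes by log2 change. Most genes ranked above them had few reads. A ranking with a cut at a mean of 200 counts was added, which was not part of the planned ranking over all genes tested. The cut lies just below the TNFRSF11B mean of 229.5 counts, and the 40 genes ranked above TNFRSF11B all fell under it. Ranks at other cuts were not computed. Among the 9542 genes with a mean of at least 200 counts in these libraries the 5 ranked 1st, 2nd, 5th, 8th and 12th, in the same order. The genes between them in that ranking were CLDN1, TNC, HHIP, KRT34, FST, CDH11 and AKAP12, with log2 changes from 1.25 for CLDN1, a tight junction claudin, to 0.91 for AKAP12, a kinase anchoring protein. EGR1, an immediate early transcription factor, stood just below EFEMP1 at 0.87.

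**Figure D1:**
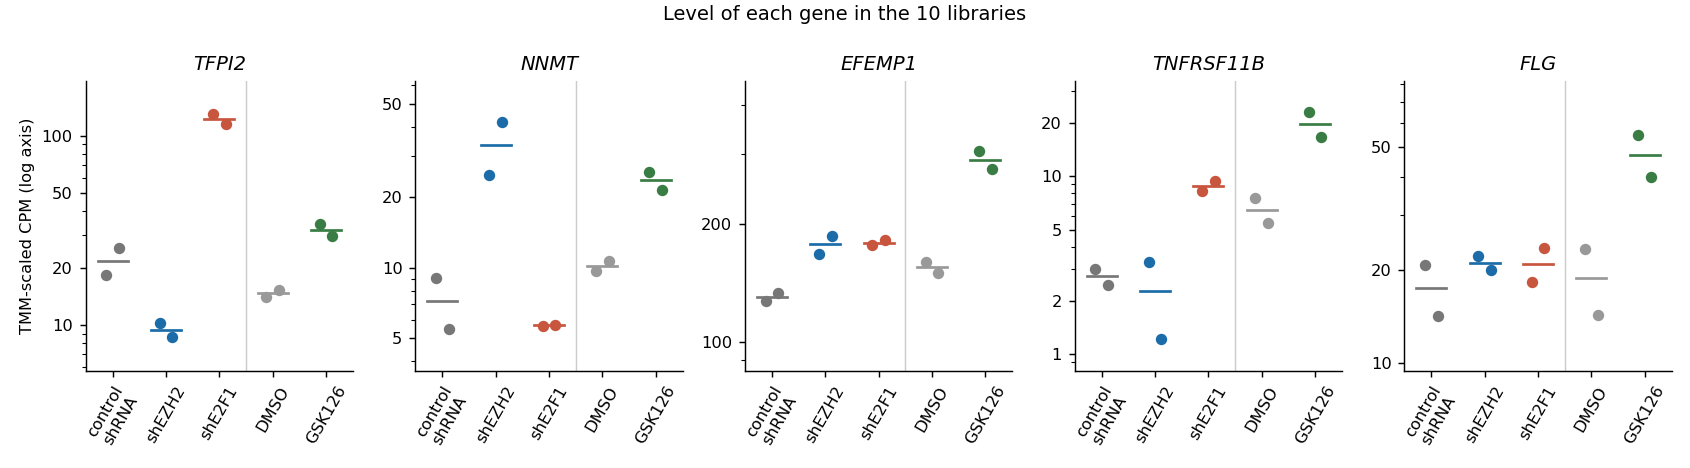
TMM-scaled CPM of each gene on a log axis in the 10 libraries, with points for libraries, horizontal lines for group means and a vertical line between the knockdown arm and the drug arm. TFPI2 stands highest in shE2F1, NNMT highest in shEZH2, and EFEMP1, TNFRSF11B and FLG highest in GSK126.

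The knockdowns asked whether loss of EZH2 or of E2F1 moved the same genes. All 5 passed the filter on low counts, and the answer differed from gene to gene. Under shEZH2, 1 of the 5 was called higher (NNMT) and 1 lower (TFPI2), where 7.52% of the 15373 genes tested were called higher and 10.7% lower. Under shE2F1, 2 of the 5 were called higher (TFPI2 and TNFRSF11B) and 0 lower, where 5.6% of all genes tested were called higher and 5.96% lower. With so few genes, these counts are not a result about the 5 as a set. No gene of the 5 was called in the same direction in both knockdowns.

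TFPI2, the protease inhibitor, changed in opposite directions. It read 18.3 and 25.4 CPM with the control shRNA and 10.2 and 8.58 CPM with shEZH2. Both shEZH2 libraries lay below both control libraries. The log2 change was -1.23 ± 0.17 (SE, n = 2 against 2, adjusted p = 0.000159, edgeR's quasi-likelihood test), a 2.35-fold fall. Without control replicate 2 the change was -0.98 and no longer passed 2-fold (adjusted p = 0.0006 in edgeR). Its transcript has 37.1% GC, with 5.67% of the genes tested lower, and with a correction for GC content and length the change was -1.29.

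With shE2F1, TFPI2 read 130 and 115 CPM, the highest levels of the gene in the series. The change against the control shRNA was 2.48 ± 0.15 (SE, n = 2 against 2, adjusted p = 1.47e-06, edgeR's quasi-likelihood test), a 5.57-fold rise. The 2 hairpins differed from each other by -3.71 ± 0.17 on the log2 scale, or 13.1-fold (adjusted p = 1.55e-07 in the same edgeR test). Between those hairpins, 10.4% of all genes tested were called higher in shEZH2 and 12.9% lower. The order of the group means ran from shE2F1 (122 CPM) through GSK126 (31.9), control shRNA (21.9) and DMSO (14.7) to shEZH2 (9.42), and no neighbours in that order overlapped in their libraries. That order runs across arms that differ in lentivirus and puromycin, and how many of all genes tested were likewise apart was not counted. The EZH2 hairpin put this gene below its control, while GSK126 stood above DMSO by the choice of the gene. The contrast between the inhibitor and the hairpin was not tested.

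NNMT, which uses S-adenosylmethionine to methylate nicotinamide, was the gene of the 5 called higher in shEZH2. It read 9.01 and 5.46 CPM with the control shRNA and 24.9 and 41.7 CPM with shEZH2, so the libraries did not overlap, although the 2 shEZH2 libraries were well apart. The change was 2.18 ± 0.26 (SE, n = 2 against 2, adjusted p = 5.94e-05, edgeR's quasi-likelihood test), a 4.55-fold rise. In shE2F1 it read 5.66 and 5.72 CPM, within the range of the controls. That change was -0.36 ± 0.29 (SE, adjusted p = 0.332 in edgeR) with a 95% interval from -1.002 to 0.27, and without control replicate 1 it was 0.05. The difference between the hairpins was 2.55 ± 0.27 (adjusted p = 1.63e-05, edgeR). By group mean, shEZH2 (33.3 CPM) and GSK126 (23.6) stood above DMSO (10.2), control shRNA (7.23) and shE2F1 (5.69). The shEZH2 and GSK126 libraries overlapped, as did those of the control shRNA and shE2F1. This order runs across arms that differ in lentivirus and puromycin, and GSK126 stood above DMSO by the choice of the gene.

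EFEMP1, which encodes fibulin-3, moved by a small and similar amount in both knockdowns. It read 127 and 133 CPM with the control shRNA, 168 and 187 CPM with shEZH2 and 176 and 182 CPM with shE2F1. Every knockdown library lay above both controls. The changes were 0.43 ± 0.09 in shEZH2 (SE, n = 2 against 2, adjusted p = 0.00199) and 0.45 ± 0.09 in shE2F1 (adjusted p = 0.00208, both from edgeR's quasi-likelihood test). Both passed the adjusted p and not the 2-fold limit, and both were measured against the same 2 control libraries. With no requirement on fold, 41.7% of all genes tested passed in shEZH2 and 30.1% in shE2F1, so passing that limit was common. The hairpins differed by -0.02 ± 0.09 (adjusted p = 0.867 in edgeR), with a 95% interval from -0.22 to 0.18. Both knockdown changes were 1.35-fold to 1.37-fold, against the 1.87-fold difference between GSK126 and DMSO, and that contrast between arms was not tested.

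TNFRSF11B is the osteoprotegerin gene (ENSG00000164761, chr8:118923557-118951885, minus strand). Its mean CPM was the lowest of the 5 in every group except shE2F1, where NNMT was lower. With the control shRNA it read 3.02 and 2.46 CPM, from 57 and 41 counts, and with shE2F1 8.29 and 9.39 CPM, from 173 and 174 counts. The shE2F1 libraries lay above the controls. The change was 1.67 ± 0.34 (SE, n = 2 against 2, adjusted p = 0.00252, edgeR's quasi-likelihood test), a 3.19-fold rise. This call rested on 3 of the 4 libraries: in edgeR the adjusted p was 0.0154 without control replicate 2, 0.0163 without shE2F1 replicate 1 and 0.0272 without shE2F1 replicate 2, with changes from 1.54 to 1.83 over all libraries left out.

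With shEZH2, TNFRSF11B read 3.32 and 1.21 CPM, from 44 and 21 counts. These libraries lay on either side of the controls. The change was -0.34 ± 0.39 (SE, adjusted p = 0.488 in edgeR) with a 95% interval from -1.21 to 0.53, which holds a 2-fold fall, so no change was detectable at this depth. Leaving out shEZH2 replicate 1 gave -1.20, and leaving out replicate 2 gave 0.27. The hairpins differed by -2.01 ± 0.36 (adjusted p = 0.000654, edgeR). The DMSO mean (6.50 CPM) was itself above the control shRNA mean (2.74), and the 2 arms differ in lentivirus and puromycin.

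FLG, the filaggrin gene, was called in neither knockdown. It read 20.8 and 14.1 CPM with the control shRNA, 22.2 and 19.99 CPM with shEZH2, and 18.2 and 23.6 CPM with shE2F1. All 3 groups overlapped. The changes were 0.25 ± 0.19 in shEZH2 (SE, n = 2 against 2, adjusted p = 0.289) and 0.25 ± 0.19 in shE2F1 (adjusted p = 0.322, both from edgeR's quasi-likelihood test). Their 95% intervals ran from -0.17 to 0.68 and from -0.18 to 0.67, and so held no 2-fold change in either direction. The hairpins differed by 0.01 ± 0.19 (adjusted p = 0.978 in edgeR, 95% interval from -0.41 to 0.43). GSK126, the condition that chose the gene, was the only group whose FLG libraries stood apart from those of every other group.

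**Figure D2:**
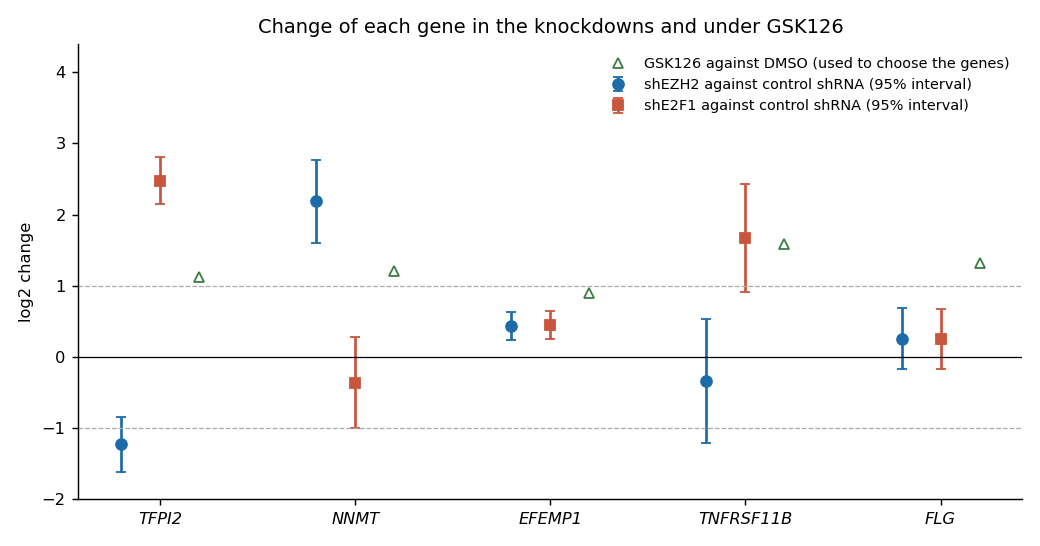
Log2 change of each gene in shEZH2 (circles) and shE2F1 (squares) against the control shRNA, with 95% intervals from edgeR, beside the GSK126 against DMSO change (open triangles, no interval, since it chose the genes), with dashed lines at 2-fold. TFPI2 lies at -1.23 in shEZH2 and 2.48 in shE2F1, NNMT at 2.18 and -0.36, and EFEMP1 and FLG near each other in both knockdowns.

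Per unit of length the 5 genes spanned a wide range. Mean TPM (a share of transcripts that divides by length) with the control shRNA was 86.8 for EFEMP1, 22.9 for TFPI2, 17.8 for NNMT, 2.00 for TNFRSF11B and 1.94 for FLG. FLG thus had more reads than TNFRSF11B and a like TPM, since its gene model is 12793 bases long. The NNMT level is uncertain on this scale: its effective length was between 540 and 666 bases in all 10 libraries, against a gene model of 2012 bases. No read of the 5 genes was divided with another gene, as the deposited posterior standard deviation of the count was 0 for each in every library. Of the 6 keratinocyte markers, KRT10 lay between 26.3 and 61.3 TPM, above FLG in every library, whereas KRT1 and KRT5 were at 0 TPM in every library, DSG1 reached at most 0.05, TP63 0.50 and KRT14 0.77 TPM. The summed keratinocyte markers lay between 60.2 and 62.3 TPM in shE2F1 and between 26.5 and 35.9 TPM elsewhere. Their part in these results was not tested. The summed fibroblast markers lay between 28.6 and 38.9 TPM in shEZH2 and between 9.97 and 14.03 TPM elsewhere, COL1A1 alone reached 31.4 TPM and DCN was at 0 in every library. In bulk libraries, a level shared by all cells and a higher level in fewer cells cannot be told apart.

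The same pathways were next read from lists of related genes, none of which holds any of the 5, with counts of called genes. Over all genes tested, 7.52% were called higher and 10.7% lower in shEZH2, and 5.6% higher and 5.96% lower in shE2F1. Each list is small beside these shares. SERPINB2, EMILIN1, FBLN5, S100A14 and CRNN, named below, had few or no control reads. They passed the filter on low counts only through knockdown libraries, where they were higher, so against the control they could only have been called higher. Of 17 tested genes of the tissue factor and plasminogen system, the proteases and inhibitors among which TFPI2 acts, 5 rose and 1 fell in shEZH2, and 3 rose and 4 fell in shE2F1. The list medians were 0.03 and -0.16 on the log2 scale, beside -0.02 and -0.00 for all genes tested. Without control replicate 2, 3 of the list were called in shE2F1 in place of 7. In shEZH2, SERPINB2, an inhibitor of plasminogen activators, rose from 1 and 3 counts to 91 and 119 counts, a ratio of 60.9 (95% exact interval from 23.4 to 226, counting error only). The matriptase gene ST14 rose by 2.41 in shEZH2 and 1.46 in shE2F1, and PROCR, the protein C receptor, fell by 1.75 in shEZH2. In shE2F1, where TFPI2 rose, its paralogue TFPI fell from 105 and 105 CPM to 42.6 and 41.4 CPM (log2 change -1.33, adjusted p = 6.26e-06 in edgeR). PLAU, the urokinase gene, fell by 2.99 and its receptor gene PLAUR by 1.10 there, while THBD, thrombomodulin, rose by 1.11 and PLAT, tissue plasminogen activator, by 1.03.

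Of 19 tested genes of nicotinamide and methyl-donor metabolism, the chemistry that NNMT joins, 0 rose and 4 fell in shEZH2, with a list median of -0.64. The genes that fell included NAPRT, which makes the NAD precursor from nicotinic acid (-1.85), PEMT, the phosphatidylethanolamine methyltransferase (-1.48), and GAMT, which forms creatine (-1.46). AOX1, an aldehyde oxidase gene, had a change of 0.91 (adjusted p = 8.19e-05 in edgeR), short of 2-fold, and 8 of the 27 genes had too few reads to test. With the GC and length correction, 1 gene of the list was called in shEZH2 in place of 4. NAMPT, which recycles nicotinamide to NAD, had a change of 0.11 (adjusted p = 0.304 in edgeR). In shE2F1, 1 gene of the list rose (NMNAT2, which makes NAD, 1.28) and 2 fell (PEMT, -1.38, and the histamine methyltransferase HNMT, -1.04), with a median of -0.05.

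Of 15 tested genes of the fibulins and the elastic fibre, 6 rose and 3 fell in shEZH2 (median 0.45), and 2 rose and 3 fell in shE2F1 (median -0.50). In place of 9 calls there were 4 in shEZH2 without shEZH2 replicate 2, and in place of 5 there were 2 in shE2F1 without shE2F1 replicate 1 and 3 without control replicate 2. LOX, which cross-links elastin and collagen, rose from 19.7 and 14.2 CPM to 316 and 383 CPM in shEZH2 (log2 change 4.35, adjusted p = 1.48e-07 in edgeR). It also rose by 1.06 in shE2F1. EMILIN1 and FBLN5 were called higher in shEZH2 from no more than 5 control counts in a library. LTBP4 and LTBP3, which hold latent TGF-beta in the matrix, fell by 1.63 and 1.61 in shEZH2. In shE2F1 the fibrillin gene FBN1 rose by 1.07, and the cross-linking enzyme gene LOXL1 fell by 2.94 and LTBP2 by 1.16. FBLN7, a fibulin like EFEMP1, fell in both knockdowns, by 2.48 in shEZH2 and 2.59 in shE2F1, from 5.41 and 2.76 CPM in the controls.

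Of 12 tested genes of the RANK and TRAIL ligands and receptors, the system that osteoprotegerin blocks, 1 rose and 2 fell in shEZH2 (median 0.09), and 0 rose and 1 fell in shE2F1 (median 0.39). In place of 3 calls there was 1 in shEZH2 without shEZH2 replicate 2 and 1 with the GC and length correction, and in place of 1 there were 2 in shE2F1 without control replicate 2. FADD, the adaptor of death receptors, fell in both, by 1.03 in shEZH2 and 1.41 in shE2F1. CFLAR, which restrains caspase activation at those receptors, rose by 1.44 in shEZH2, and NFATC1, a transcription factor downstream of RANK, fell by 1.26 there. TNFSF10, which encodes TRAIL, had changes of 0.58 (adjusted p = 0.0546) and -0.75 (adjusted p = 0.0278) in the same edgeR test. TNFRSF11A, which encodes RANK, had changes of 0.85 and 0.35. Neither of these genes was called.

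The epidermal list held 40 genes of epidermal differentiation and the cornified envelope, of which 13 had enough reads to test. In shEZH2, 1 rose and 1 fell (median -0.07), and in shE2F1, 2 rose and 3 fell (median 0.24). The 1 rise in shEZH2 (S100A14) and 1 of the 2 in shE2F1 (CRNN) were genes that passed the filter only through knockdown libraries. The 2 calls in shEZH2 became 1 without control replicate 1 or shEZH2 replicate 1, and 4 without control replicate 2 or with the GC and length correction. CRNN, the cornulin gene, had 0 counts in both controls and 3.55 and 3.24 CPM in shE2F1, at least 17.98-fold higher than a floor of 3 counts per control library. TGM1, the transglutaminase of the cornified envelope, rose by 2.57 in shE2F1. In shE2F1 the S100 calcium-binding protein genes S100A2, S100A10 and S100A4 fell by 2.51, 1.18 and 1.09. In shEZH2, S100A6 fell by 1.00, and S100A14 rose from 3 and 1 counts to 17 and 34, a ratio of 14.8 (95% exact interval from 5.44 to 56.4, counting error only).

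**Figure D3:**
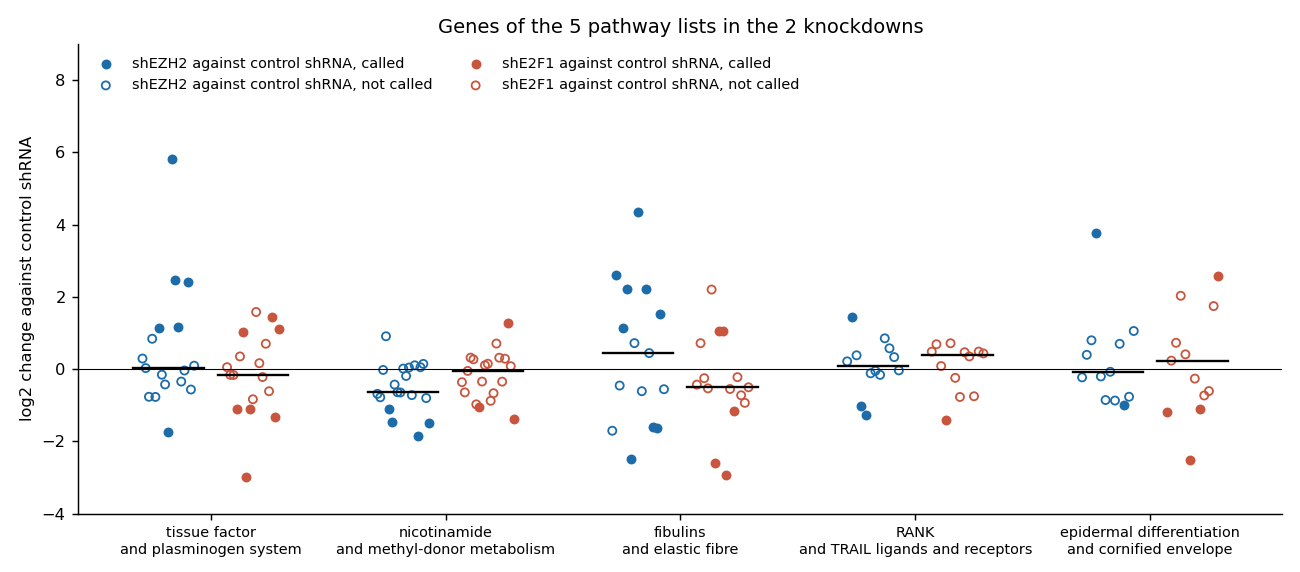
Log2 change against the control shRNA of each tested gene of the 5 pathway lists in shEZH2 (blue) and shE2F1 (red), with filled points for called genes, open points for the rest and black lines for list medians. CRNN, which is at 0 in both controls, is in the medians and not drawn. The nicotinamide and methyl-donor list is centred at -0.64 in shEZH2, and LOX and SERPINB2 are the highest points of their lists.

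The genes around each of the 5 were read to see whether a change reached past the gene. Within 500 kb, 133 genes are annotated and 25 were tested, of which 2 rose and 0 fell in shEZH2, and 6 rose and 2 fell in shE2F1. The shares over all genes tested were 7.52% and 10.7% in shEZH2 and 5.6% and 5.96% in shE2F1. CRNN, CCDC85A and SAMD12-AS1 had few or no control reads and passed the filter on low counts through knockdown libraries, where they were higher. With a mean of at least 50 counts required, 1 neighbour was called in shEZH2 and 4 in shE2F1. At TNFRSF11B, 3 of 4 tested neighbours were called higher in shE2F1, too few genes to read as a result about the region. MAL2, a membrane trafficking protein gene 213 kb away, read 1.54 and 1.62 CPM in the controls and 10.1 and 10.8 CPM in shE2F1 (log2 change 2.72, adjusted p = 1.36e-05 in edgeR). CCN3, a matrix signalling protein gene 465 kb away, read 0.689 and 0.420 CPM in the controls and 6.62 and 4.58 CPM in shE2F1 (log2 change 3.30, adjusted p = 8.35e-05 in edgeR). Both were low in the controls and well above them in shE2F1, and their changes in shEZH2 were 0.42 and 0.29, not called. In GSK126 against DMSO they differed by 1.20 and 1.64. SAMD12 rose by 2.05 in shEZH2, where TNFRSF11B did not. SAMD12-AS1 was called higher in both knockdowns from 3 counts in each control library.

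At TFPI2, the nearest tested gene was GNG11, a G protein gamma subunit gene 31.0 kb away, which rose with it in shE2F1, from 31.5 and 29.8 CPM to 74.6 and 64.9 CPM (log2 change 1.18, adjusted p = 3.09e-05 in edgeR). Its change in shEZH2 was -0.17 (adjusted p = 0.288 in edgeR), and it differed by 0.38 in GSK126. CALCR, the calcitonin receptor gene on the other side, had changes of -2.36 and 1.66 in the 2 knockdowns and 1.47 in GSK126, from at most 70 counts in a library, and was not called. At NNMT, 0 of 6 tested neighbours were called in either knockdown. At EFEMP1, 1 of 6 was called, CCDC85A in shE2F1, from 6 and 2 control counts. At FLG, CRNN rose and S100A10 and FLG-AS1 fell in shE2F1. FLG-AS1 overlaps FLG on the opposite strand and fell by 1.26 there, from 5.99 and 5.10 CPM to 2.54 and 2.10 CPM. The library kit keeps strand, and whether the counting used it is not given in the sources used here. The deposited posterior standard deviation of the count was 0 for both genes in every library, so no read was divided between them. Whether reads of this pair were given to the wrong strand was not tested.

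**Figure D4:**
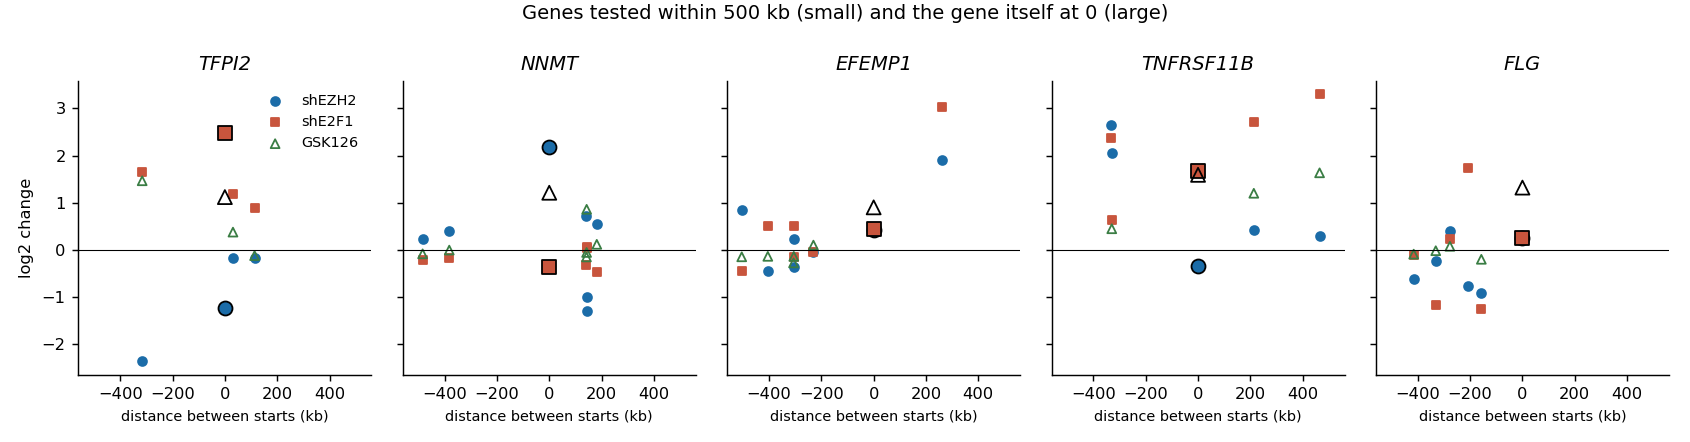
Log2 change of each tested gene within 500 kb (small symbols) and of the gene itself (large symbols at 0) against the signed distance between gene starts in kb, in shEZH2 (circles), shE2F1 (squares) and GSK126 against DMSO (open triangles, no test). CRNN, at 0 in both controls, is not drawn. At TNFRSF11B, MAL2 and CCN3 lie at 2.72 and 3.30 in shE2F1, and the neighbours of NNMT lie closer to 0 than NNMT does in shEZH2.

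Over the 10 libraries the 5 genes did not share one pattern. Pearson's r between pairs of them, on log2 CPM, ran from -0.61 for TFPI2 and NNMT to 0.89 for EFEMP1 and FLG. These are descriptions over 10 libraries that share groups, and the GSK126 libraries that chose the genes are among them. The closest pattern to TFPI2 was that of CYB5R2, a cytochrome b5 reductase gene (r = 0.99), followed by TFAP2C, an AP-2 transcription factor gene (r = 0.98), and LINC02614 (r = 0.98). TFAP2C read 6.46 and 6.90 CPM with the control shRNA, 3.16 and 2.53 CPM with shEZH2 and 23.6 and 22.7 CPM with shE2F1. It was lowest in shEZH2 and highest in shE2F1, as TFPI2 was, which the choice by r favours, so it is not a result. For NNMT the closest were TFCP2L1, TMTC4 and RALGPS1 (r = 0.97, 0.97 and 0.95). For TNFRSF11B they were HHIP-AS1, the Notch ligand gene JAG1 and CCDC113 (r = 0.98, 0.98 and 0.95), and JAG1 read 122 and 117 CPM with the control shRNA, 167 and 174 CPM with shE2F1 and 239 and 218 CPM in GSK126. For EFEMP1 they were FLG, ICA1 and HHIP (r = 0.89 for each), and for FLG they were TSPAN5-DT, EFEMP1 and NUP62CL (r = 0.94, 0.89 and 0.89).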

How the data were processed

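Gene expression was measured by mRNA-seq in MDA-MB-231 cells. Per the labels, the submitters' processing notes name STAR 2.7.2b, RSEM 1.3.1 and GRCh38/hg38, and the study's methods name Ensembl release 108. The authors deposited, per library, RSEM expected counts with their posterior standard deviation, effective lengths and TPM. The deposited TPM were used for levels between genes and for markers, and the expected counts, rounded to whole numbers, for tests. Of 18 sample records, 8 repeated the values of another exactly, which left 10 distinct libraries, 2 per group. Gene names were taken from GENCODE 44, which held 99.9% of the identifiers.

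The 6 knockdown libraries and the 4 drug libraries were fitted separately with edgeR 4.0.16 (R 4.3.3): filterByExpr, TMM scaling, the quasi-likelihood F-test and Benjamini-Hochberg adjustment over all genes tested, with no covariate. The deposited counts are normalised here only through TMM. A standard error is the log2 change divided by the square root of F, and each 95% interval uses the fit's degrees of freedom. Alternatives used DESeq2 1.42.0, limma 3.58.1 on log2(TPM + 0.5) or log2(TPM + 0.1), other filters, a replicate block, length and GC corrections, and each library left out. The fit was tested on simulated data. Named genes were the 5, the 2 hairpin targets, up to 3 called genes per list, direction and knockdown, called or overlapping neighbours within 500 kb, and the 3 genes closest in pattern by Pearson's r on log2(CPM + 0.5). Genes such as NAMPT, AOX1, TNFSF10 and CALCR were named in addition after their values were seen. One gene that the rule names is not reported here. The members and lists were chosen with earlier results of these data known. Intervals on counts cover counting error only.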

Additional observations from a re-analysis of the deposited data

How the results depend on the processing

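Of 360 alternative values computed for the 20 results on the 5 genes (4 comparisons each), 334 kept the direction and the side of the threshold (for GSK126, moved by less than the spread between replicates). TFPI2 in GSK126 was 1.31 with an effective length offset, 1.303 with log2(TPM + 0.5) and 1.33 with log2(TPM + 0.1). On those 2 TPM scales in limma, TNFRSF11B in shE2F1 was 1.84 (adjusted p = 0.0113) and 2.03 (adjusted p = 0.0133), no longer called, and in shEZH2 it was 0.0202 and 0.00139. EFEMP1, at 0.43 in shEZH2 and 0.45 in shE2F1, was called once the fold limit was dropped and the adjusted p set to 0.05. The differences between hairpins nearest 0 changed sign: EFEMP1 to 0.00419 and 0.00272 with the GC and length correction, without and with the block, and FLG to -0.0212 with no filter, -0.0265 with a mean of at least 50 counts, -0.21 with the GC and length correction without and with the block, and -0.000587 with the 4 libraries alone. The causes were not tested.

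Leaving out each library in turn gave, for TFPI2, -1.46 to -0.98 in shEZH2, 2.25 to 2.74 in shE2F1, -3.83 to -3.57 between hairpins and 1.01 to 1.23 in GSK126. For NNMT the ranges were 1.78 to 2.60, -0.67 to 0.0467, 2.13 to 2.87 and 1.08 to 1.34 in the same order. For EFEMP1 they were 0.37 to 0.50, 0.42 to 0.49, -0.0891 to 0.0574 and 0.82 to 0.99. For TNFRSF11B they were -1.20 to 0.27, 1.54 to 1.83, -2.86 to -1.41 and 1.34 to 1.87. For FLG they were 0.01 to 0.56, 0.00 to 0.55, -0.17 to 0.20 and 1.01 to 1.74. A group left with 1 library was assumed to vary like the others.

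Genes called higher and lower numbered 1156 and 1647 in shEZH2, 861 and 916 in shE2F1, and 1598 and 1984 between hairpins. With the adjusted p under 0.05 and no fold limit they were 4146 and 4404, 3241 and 3638, and 4559 and 4708. On the log2(TPM + 0.5) and log2(TPM + 0.1) scales the lower calls were 808 and 845 in shEZH2 and 377 and 391 in shE2F1. Without 1 library the counts ran from 882 to 1163 and 1133 to 1760 in shEZH2, 570 to 893 and 711 to 938 in shE2F1 (570 without shE2F1 replicate 2 and 571 without replicate 1), and 1342 to 1591 and 1472 to 2005 between hairpins. The 5 lists had 24 called genes in shEZH2 and 21 in shE2F1, and 50 and 51 at an adjusted p under 0.05 with no fold limit, with 18 to 24 and 16 to 22 without 1 library. Single lists were less stable: on both TPM scales the fibulin list had 5 calls in shEZH2 (of 9) and 3 in shE2F1 (of 5), the tissue factor list 3 in shE2F1 (of 7) and the epidermal list 1 in shEZH2 (of 2) and 3 in shE2F1 (of 5). In shEZH2 the epidermal list had 0 calls with a mean of at least 50 counts and 1 in DESeq2, with DESeq2 size factors, with all 10 libraries and with the block. Called neighbours in shEZH2 numbered 2, and 1 in DESeq2, with either TPM scale or with a mean of at least 50 counts, 5 with no filter and 12 at an adjusted p under 0.05 with no fold limit, with 1 to 2 without 1 library. In shE2F1 they numbered 8, 4 with a mean of at least 50 counts and 16 at an adjusted p under 0.05 with no fold limit, with 5 to 9 without 1 library. In GSK126, 0 genes were called, and 37 to 43 without 1 library.

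The replicates share numbers but nothing says that a number marks a shared culture or day. Replicate differences correlated at r = 0.74 between DMSO and GSK126 over 11616 genes, and at 0.01, 0.06 and 0.21 between the knockdown groups. Blocking on the replicate number gave 53 higher and 15 lower calls over all genes in GSK126, and 77 calls with the GC and length correction. No call on the 5 genes in the knockdowns changed under the block: TFPI2 was -1.23 and 2.48, NNMT 2.16 and -0.37, EFEMP1 0.43 and 0.45, TNFRSF11B -0.35 and 1.70, and FLG 0.26 and 0.26 in shEZH2 and shE2F1. With 2 libraries a group, 1 hairpin per target and between 21 and 174 counts of TNFRSF11B in a knockdown library, small changes of that gene could not be resolved.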

Other observations

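Among the other genes with a mean of at least 200 counts that stood in the same range of differences between GSK126 and DMSO, values in the 4 drug libraries were as follows, as a description with no test. TNC, the matrix glycoprotein tenascin C, read 13.7 and 17.4 CPM in DMSO against 30.5 and 41.9 CPM in GSK126. KRT34, a hair keratin gene, read 9.38 and 12.6 CPM in DMSO against 24.8 and 24.7 CPM in GSK126. FST, the activin antagonist follistatin, read 64.5 and 55.0 CPM in DMSO against 123 and 117 CPM in GSK126. EGR1 read 19.9 and 50.4 CPM in DMSO against 33.1 and 94.5 CPM in GSK126, so that replicate 2 exceeded replicate 1 in both groups and the groups overlapped. CXCL8, the neutrophil chemokine gene, read 60.8 and 46.0 CPM in DMSO against 113 and 80.4 CPM in GSK126.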
